A study of Mus musculus with 10 samples.

Results

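The 10 genes described here act in turning membrane phospholipids into eicosanoids and platelet-activating factor (PAF): Lpcat2, Pla2g4a, Alox5, Alox5ap, Ltc4s, Lta4h, Ptgs1, Ptgs2, Hpgds and Ptgds. All 10 are called enzymes below for short, although Alox5ap encodes a partner protein of an enzyme. They were chosen by symbol, and all 10 were found once each among the 56884 gene identifiers of the count table. The list was drawn up with the DHT-to-void differences of these same mice known, so the fold changes and adjusted p values of the 10 genes describe them and are no independent test. Bulk RNA-seq was run on the hippocampus of 10 female P301S mice (the PS19 line), 1 library per mouse. All 10 mice carried a human 1N4R tau transgene with the P301S mutation, driven by the mouse Prnp promoter, and all had intact ovaries. From 6 months of age, 5 mice carried a subcutaneous SILASTIC tube with 10 mm of dihydrotestosterone (DHT, an androgen that aromatase cannot convert into estrogen), and the other 5 carried an empty (void) tube. Hippocampi were taken after 12 weeks, at 9 to 9.5 months. The comparison asks how an elevated androgen level changes the female tauopathy hippocampus, and mice without the transgene were not analysed here.

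Cytosolic phospholipase A2 (Pla2g4a) frees arachidonate from membrane phospholipids and leaves a lysophospholipid behind. LPCAT2 acetylates one such lysophospholipid, lyso-PAF, to PAF, and also puts fatty acids back onto lysophosphatidylcholine. Arachidonate enters the leukotriene branch through 5-lipoxygenase (Alox5) and its membrane partner FLAP (Alox5ap), after which LTA4 hydrolase (Lta4h) makes the chemoattractant leukotriene B4 and leukotriene C4 synthase (Ltc4s) couples the same intermediate to glutathione. In the prostanoid branch, the cyclooxygenases COX-1 (Ptgs1) and COX-2 (Ptgs2) make prostaglandin H2, which the glutathione-dependent enzyme of Hpgds or the lipocalin-type enzyme of Ptgds turns into prostaglandin D2. In brain, COX-1 and Hpgds are known from microglia, COX-2 from excitatory neurons, and Ptgds from the leptomeninges, choroid plexus and oligodendrocytes.

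RefSeq promoter sequences on GRCm38.p6 matched 9 of the 10 symbols (all but Alox5ap), and the 250 bases before the start are printed for 6 genes. Lpcat2 and Ltc4s are shown because they had the largest fold changes of the 10, and the pairs Ptgs1 with Ptgs2 and Hpgds with Ptgds because the enzymes of each pair catalyse the same reaction. Capitals mark GAGGAA on either strand, the PU box bound by the myeloid factor PU.1. No other motif is marked, since AGGTCA, the core motif of nuclear receptors, occurred in none of these 6 stretches.
Lpcat2, chr8:92855083-92855332, plus strand: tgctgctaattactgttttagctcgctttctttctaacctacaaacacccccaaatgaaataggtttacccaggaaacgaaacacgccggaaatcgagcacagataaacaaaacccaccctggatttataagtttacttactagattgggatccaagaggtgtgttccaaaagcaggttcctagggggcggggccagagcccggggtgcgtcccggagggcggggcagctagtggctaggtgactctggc
Ltc4s, chr11:50238533-50238782, minus strand: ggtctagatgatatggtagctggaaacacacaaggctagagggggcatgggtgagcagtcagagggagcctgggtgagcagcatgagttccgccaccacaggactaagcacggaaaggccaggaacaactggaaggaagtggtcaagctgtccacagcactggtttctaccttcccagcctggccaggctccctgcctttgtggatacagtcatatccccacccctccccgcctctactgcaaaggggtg
Ptgs1, chr2:36230176-36230425, plus strand: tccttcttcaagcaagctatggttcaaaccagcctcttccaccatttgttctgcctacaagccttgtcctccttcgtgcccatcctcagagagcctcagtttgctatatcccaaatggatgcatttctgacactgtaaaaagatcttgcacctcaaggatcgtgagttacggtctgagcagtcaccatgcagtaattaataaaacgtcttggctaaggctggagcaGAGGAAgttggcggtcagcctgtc
Ptgs2, chr1:150099781-150100030, plus strand: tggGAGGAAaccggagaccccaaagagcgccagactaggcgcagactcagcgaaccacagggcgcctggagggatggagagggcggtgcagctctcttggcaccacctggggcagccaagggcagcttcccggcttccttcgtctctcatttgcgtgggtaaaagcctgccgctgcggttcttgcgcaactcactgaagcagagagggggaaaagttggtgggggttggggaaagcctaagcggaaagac
Hpgds, chr6:65144731-65144980, minus strand: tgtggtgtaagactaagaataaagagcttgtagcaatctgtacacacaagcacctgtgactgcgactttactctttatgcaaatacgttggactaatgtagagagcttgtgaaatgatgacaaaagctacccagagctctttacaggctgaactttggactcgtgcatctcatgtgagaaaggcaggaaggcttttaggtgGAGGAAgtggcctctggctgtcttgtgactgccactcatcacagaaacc
Ptgds, chr2:25469750-25469999, minus strand: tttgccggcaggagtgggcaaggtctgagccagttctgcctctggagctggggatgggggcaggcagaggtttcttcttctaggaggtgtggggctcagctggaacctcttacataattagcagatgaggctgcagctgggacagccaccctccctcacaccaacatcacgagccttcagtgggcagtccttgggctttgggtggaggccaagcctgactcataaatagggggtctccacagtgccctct
The PU box began 24 bases before the start in Ptgs1, 49 bases in Hpgds and 247 bases in Ptgs2. Alox5 and Lta4h held it 136 and 126 bases before theirs. Of all 32851 promoter stretches of this length, 23.3% held GAGGAA on either strand, against 5 of the 10 stretches of these enzymes (Pla2g4a has 2 starts). AGGTCA was found in 14.0% of all stretches and in 1 of the 10, which lies before the first start of Pla2g4a. AGAACA followed after 3 bases by its reverse complement TGTTCT, an androgen response element, was in 3 of the 32851 stretches and in none of the 10. The stretches of Lpcat2, Ltc4s and Ptgds held none of the 3 motifs. A match describes letters in the window and not a bound site. The motifs were chosen after these promoters were read, so the shares are a description and nothing is read from them.

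Total counts per mouse ranged from 27188854 to 47113661, and 17622 genes passed edgeR's filter on low counts. Levels are in CPM, counts scaled to library size after TMM normalization. Summed over 12 markers each, microglial genes ranged from 472 to 552 CPM in void-treated and 663 to 935 CPM in DHT-treated mice, and choroid plexus epithelium genes from 118 to 1924 CPM and 2202 to 3164 CPM. The groups do not interleave in the library numbers of the labels, so that order cannot be told apart from the implant. The 7 neuronal markers, which check for neuronal tissue but not for the region dissected, summed to 7061 to 8784 CPM over all mice. In bulk tissue, more cells of a type and more RNA per cell cannot be told apart either. The labels number the mice, and the p values measure the spread between these animals. The paper states that mice shared housing only inside a treatment group, so cage and implant cannot be told apart.

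All 10 enzymes passed the filter on low counts. At an adjusted p under 0.05, 3 of them were higher with DHT (Lpcat2, Alox5ap and Ltc4s), where 5.19% of all tested genes were called higher. None was lower at that limit in edgeR's quasi-likelihood test, where 0.25% of all tested genes were called lower. At an unadjusted p under 0.05 none was lower either, a limit for which no share of all tested genes is given. DESeq2 also called none of the 10 lower, beside 226 of all genes. Adding the study's limit of a log2 change beyond 1 left 1 enzyme, Ltc4s, beside 2.11% of all tested genes. In 4 enzymes every DHT-treated mouse was above every void-treated mouse (Lpcat2, Alox5ap, Ltc4s and Ptgs1), as in 5.39% of all tested genes, and in none was every DHT-treated mouse below, as in 0.88%. The log2 change was above 0 for 9 of the 10, beside 52.4% of all tested genes, and its median was 0.34, beside 0.00937 over all genes tested. Since the list was made with these differences in view, nothing is read from these shares.

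**Figure D1:**
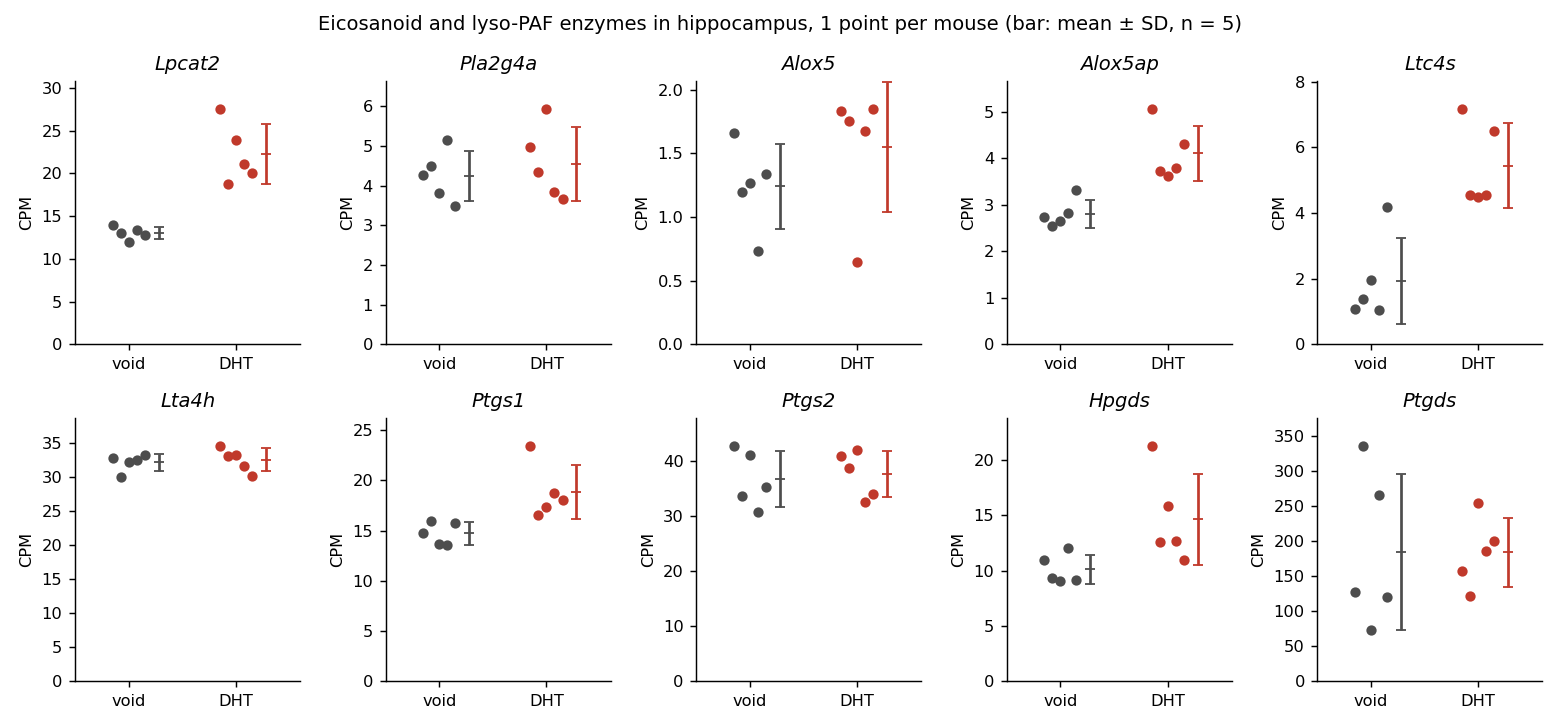
CPM of the 10 enzymes in each mouse (y axis, linear from 0), with the mean and SD of 5 mice beside the points. For Lpcat2, Alox5ap, Ltc4s and Ptgs1 the DHT-treated mice sit entirely above the void-treated mice, while Lta4h and Ptgs2 lie in the same range in both groups.

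Lpcat2 (ENSMUSG00000033192) had the lowest p of the 10. In void-treated mice it was at 11.9 CPM in replicate 4, 13.3 in replicate 5, 12.8 in replicate 9, 13.9 in replicate 10 and 12.97 in replicate 11. In DHT-treated mice it was at 27.5 CPM in replicate 1, 18.7 in replicate 2, 23.9 in replicate 3, 21.1 in replicate 5 and 20.1 in replicate 6. The groups did not overlap: the highest void-treated mouse was at 13.9 CPM and the lowest DHT-treated mouse at 18.7. The mean rose from 13 ± 0.734 to 22.3 ± 3.49 CPM (SD, n = 5 each). On the log2 scale the change from void to DHT was 0.78 with a standard error (SE) of 0.10, at an adjusted p of 0.00626 in edgeR. Its adjusted p stayed under 0.05 in all 10 fits that left out 1 mouse, with a log2 change from 0.65 to 0.83. With the choroid plexus score of each mouse as a covariate, a fit in which no gene of the genome was called, the log2 change was 0.77 (SE 0.18, adjusted p = 0.578). Lpcat1, the related acyltransferase best known from lung surfactant, averaged 39.3 ± 1.69 CPM in void-treated and 41.0 ± 2.89 in DHT-treated mice (SD, n = 5 each), and its log2 change was 0.06 (SE 0.06, adjusted p = 0.721). Within each mouse, the log2 ratio of Lpcat2 to Lpcat1 lay between -1.69 and -1.51 with void and between -1.09 and -0.61 with DHT, without overlap. Since Lpcat1 was nearly level, this ratio restates the difference in Lpcat2 and is no further result.

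Pla2g4a, which supplies the substrate of both branches, averaged 4.24 ± 0.641 CPM in void-treated and 4.55 ± 0.925 CPM in DHT-treated mice (SD, n = 5 each). The groups lay within each other, from 3.47 to 5.14 and from 3.66 to 5.93 CPM, and the log2 change of 0.10 was smaller than its standard error of 0.16 (adjusted p = 0.817).

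In the leukotriene branch, Alox5ap passed the test and Alox5 did not, and the difference between them was not tested. Alox5 had 23 to 71 counts per library. It averaged 1.24 ± 0.333 CPM in void-treated and 1.55 ± 0.508 in DHT-treated mice (SD, n = 5 each), and its log2 change was 0.32 (SE 0.29, adjusted p = 0.656). Of the DHT-treated mice, 4 were between 1.68 and 1.85 CPM and replicate 3 was at 0.649, below every void-treated mouse. Alox5ap was at 2.64, 2.81, 3.32, 2.73 and 2.55 CPM in void replicates 4, 5, 9, 10 and 11. With DHT it was at 5.05, 3.73, 3.62, 3.80 and 4.32 CPM in replicates 1, 2, 3, 5 and 6, so that each DHT-treated mouse was above each void-treated one. The log2 change of Alox5ap was 0.55 (SE 0.13, adjusted p = 0.0303). The call depended on single mice: of the 10 fits without 1 mouse it held in 2, those without void replicate 9 or DHT replicate 2, and its adjusted p rose to 0.108 without DHT replicate 1 or void replicate 11. The choroid plexus covariate brought the log2 change to 0.33 (SE 0.21, adjusted p = 0.846).

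Ltc4s had the largest fold change of the 10 and moved with choroid plexus marker RNA. In void-treated mice it was at 1.97 CPM in replicate 4, 1.05 in replicate 5, 4.19 in replicate 9, 1.07 in replicate 10 and 1.38 in replicate 11. In DHT-treated mice it was at 7.16 CPM in replicate 1, 4.54 in replicate 2, 4.48 in replicate 3, 4.55 in replicate 5 and 6.49 in replicate 6. Void replicate 9 stood close to the DHT-treated mice, and the groups were separated only by the gap from 4.19 to 4.48 CPM. The log2 change was 1.49 (SE 0.34, adjusted p = 0.0269), or 2.80-fold. Of the fits without 1 mouse, 4 of 10 kept the adjusted p under 0.05 (those without void replicate 9 or DHT replicate 2, 3 or 5), with log2 changes from 1.33 without void replicate 5 to 1.97 without void replicate 9. The summed CPM of the 12 choroid plexus markers was 118 and 126 in void replicates 5 and 11, 460 in replicate 10, 968 in replicate 4 and 1924 in replicate 9, where Ltc4s was lowest in the first 3 of these and highest in the last. Among DHT-treated mice the marker sum was 2202, 2264 and 2303 CPM in replicates 3, 2 and 5 and 2534 and 3164 CPM in replicates 6 and 1, the same order as that of Ltc4s. All 12 of the choroid plexus markers had a positive log2 change, with 1 of them (Calml4) called in edgeR and 6 with DESeq2. Once the choroid plexus score entered the fit, the log2 change of Ltc4s was 0.38 (SE 0.32, adjusted p = 0.910), against 0.77 for Lpcat2 in the same fit. Marker sums of the groups do not overlap, so choroid plexus content and implant are partly confounded in that fit. The part of choroid plexus content in the change of Ltc4s was not tested.

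**Figure D2:**
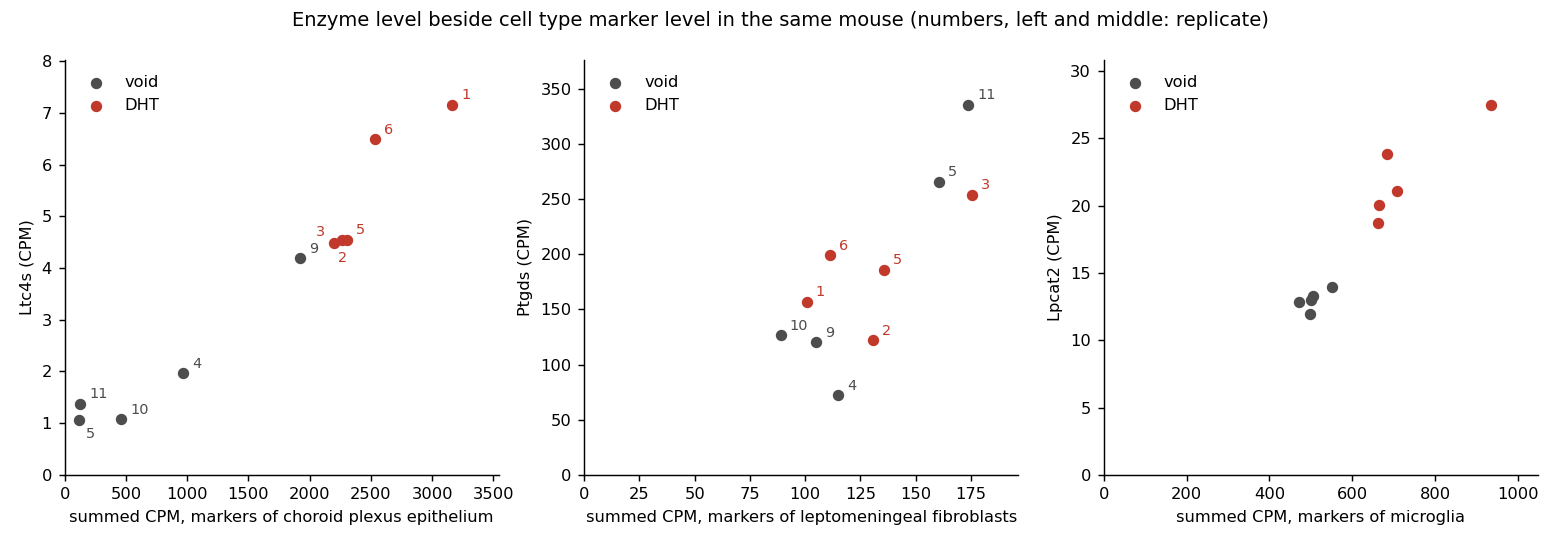
CPM of Ltc4s, Ptgds and Lpcat2 in each mouse (y axes, from 0) against the summed CPM of choroid plexus, leptomeningeal and microglial markers in the same mouse (x axes, from 0). Void replicate 9, at 1924 CPM of choroid plexus markers, has the Ltc4s level nearest to the DHT-treated mice, and void replicates 5 and 11 and DHT replicate 3 are highest for both Ptgds and the leptomeningeal markers.

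Lta4h, which competes with Ltc4s for leukotriene A4, was the steadiest of the 10. It ranged from 30.1 to 33.3 CPM with void and from 30.2 to 34.6 CPM with DHT, a coefficient of variation of 3.84% and 5.17%. Its log2 change was 0.02 (SE 0.06, adjusted p = 0.924), and its sign was negative with DESeq2 (-0.01). The log2 ratio of Ltc4s to Lta4h within a mouse ranged from -4.95 to -2.99 with void and from -2.89 to -2.22 with DHT. With Lta4h nearly level, this ratio restates the difference in Ltc4s.

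Neither cyclooxygenase passed the test in edgeR. Ptgs1 was at 13.6, 13.5, 15.8, 14.8 and 15.9 CPM in void replicates 4, 5, 9, 10 and 11. With DHT it was at 23.4, 16.5, 17.4, 18.8 and 18.01 CPM in replicates 1, 2, 3, 5 and 6. The groups did not overlap, with the highest void-treated mouse at 15.9 CPM and the lowest DHT-treated mouse at 16.5 CPM. The log2 change of Ptgs1 was 0.36 (SE 0.10) with an adjusted p of 0.0625. It passed with DESeq2 (adjusted p = 0.0422), with library size in place of TMM (0.0498) and without DHT replicate 2 (0.0433). Ptgs2 ranged from 30.7 to 42.7 CPM with void and from 32.4 to 41.9 CPM with DHT, with a log2 change of 0.04 (SE 0.10, adjusted p = 0.918). As an enzyme induced by neuronal activity, it was set beside 8 immediate early genes such as Fos and Arc. Their summed level ranged from 211 to 652 CPM with void and from 255 to 499 CPM with DHT. All 8 had a log2 change below 0, with a median of -0.34, and none passed in edgeR, at an unadjusted p under 0.05 or with DESeq2. The difference between the fold changes of Ptgs1 and Ptgs2 was not tested: their log2 ratio within a mouse lay between -1.59 and -1.07 with void and between -1.27 and -0.79 with DHT, with overlap.

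Of the prostaglandin D2 synthases, Hpgds was at 9.03, 12.0, 9.18, 10.96 and 9.35 CPM in void replicates 4, 5, 9, 10 and 11. With DHT it was at 21.3, 12.6, 15.9, 12.6 and 10.9 CPM in replicates 1, 2, 3, 5 and 6. The groups overlapped, since DHT replicate 6 was below void replicates 5 and 10. The log2 change of Hpgds was 0.54 (SE 0.17, adjusted p = 0.0933), and 0.33 without DHT replicate 1. DESeq2 put its adjusted p at 0.0472. Ptgds was the most abundant of the 10 and the most variable between void-treated mice apart from Ltc4s. It was at 72.2, 266, 120, 127 and 336 CPM in void replicates 4, 5, 9, 10 and 11, and at 157, 122, 254, 186 and 199 CPM in DHT replicates 1, 2, 3, 5 and 6. The means were nearly the same, 184 ± 111 and 184 ± 49.4 CPM (SD, n = 5 each), and the log2 change was -0.00269 (SE 0.38, adjusted p = 0.999). Of the 10 enzymes Ptgds had the largest SE, which sets how small a difference this comparison could detect. Void replicates 11 and 5 and DHT replicate 3, the mice with the most Ptgds, also had the most of 10 leptomeningeal fibroblast markers, with summed levels of 174, 161 and 175 CPM, while the other 7 mice ranged from 89.0 to 136 CPM. The leptomeningeal list ranged from 89.0 to 174 CPM with void and from 101 to 175 CPM with DHT, and 1 of its 10 genes (Igf2) was called higher. With the leptomeningeal score as a covariate, added after the values were seen, the standard error of Ptgds fell to 0.23 at a log2 change of -0.09 (adjusted p = 0.877). With the choroid plexus score instead, its log2 change was 1.34 (SE 0.40, adjusted p = 0.578).

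Per kilobase of exon (GENCODE M21 gene models), void-treated hippocampus held 112 ± 67.6 CPM per kb of Ptgds, 8.001 ± 1.105 of Ptgs2, 5.27 ± 0.203 of Lta4h, 3.84 ± 0.217 of Lpcat2 and 3.79 ± 0.292 of Ptgs1 (SD, n = 5). Alox5ap followed with 1.98 ± 0.212 CPM per kb, Ltc4s with 1.90 ± 1.296, Hpgds with 1.57 ± 0.205, Pla2g4a with 0.664 ± 0.100 and Alox5 with 0.302 ± 0.0811. Lpcat2 and Ptgs1 did not differ beyond their spread, nor did Alox5ap and Ltc4s, nor Ltc4s and Hpgds. With DHT, Lpcat2 reached 6.57 ± 1.03 CPM per kb, beside Lta4h at 5.34 ± 0.276, and Ltc4s reached 5.37 ± 1.26.

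Since microglial markers were higher with DHT as well, each enzyme was also set against the mean log2 CPM of 12 microglial markers in the same mouse. That mean was 4.79 ± 0.10 in void-treated and 5.25 ± 0.20 in DHT-treated mice (SD, n = 5 each), and 5 of the 12 markers were called higher, among them Csf1r and Cx3cr1. All 12 had a positive log2 change, and their part in the changes of the enzymes was not tested. Relative to the markers, Lpcat2 shifted by 0.30 in log2 units, from -1.08 ± 0.07 to -0.78 ± 0.07, and the groups did not overlap. Alox5ap (0.07), Hpgds (0.04) and Ptgs1 (-0.11) were shifted relative to the markers by less than the SD between void-treated mice, with overlapping groups. Ltc4s was 1.18 higher, with overlap through void replicate 9. Lta4h was 0.44 lower relative to the markers without overlap, Ptgs2 was 0.42 lower and Pla2g4a 0.37 lower with overlap. The marker mean itself was 0.46 higher with DHT, so an enzyme with unchanged CPM is shifted down by about that much. In CPM the log2 changes of Lta4h, Ptgs2 and Pla2g4a were 0.02, 0.04 and 0.10, so their shifts mostly restate the rise of the markers. Alox5 (-0.19) and Ptgds (-0.28) stayed within their spread. No test was run on these values, which come from the same contrast as the fold changes. The share of all genes without overlap on this scale is not given here.

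**Figure D3:**
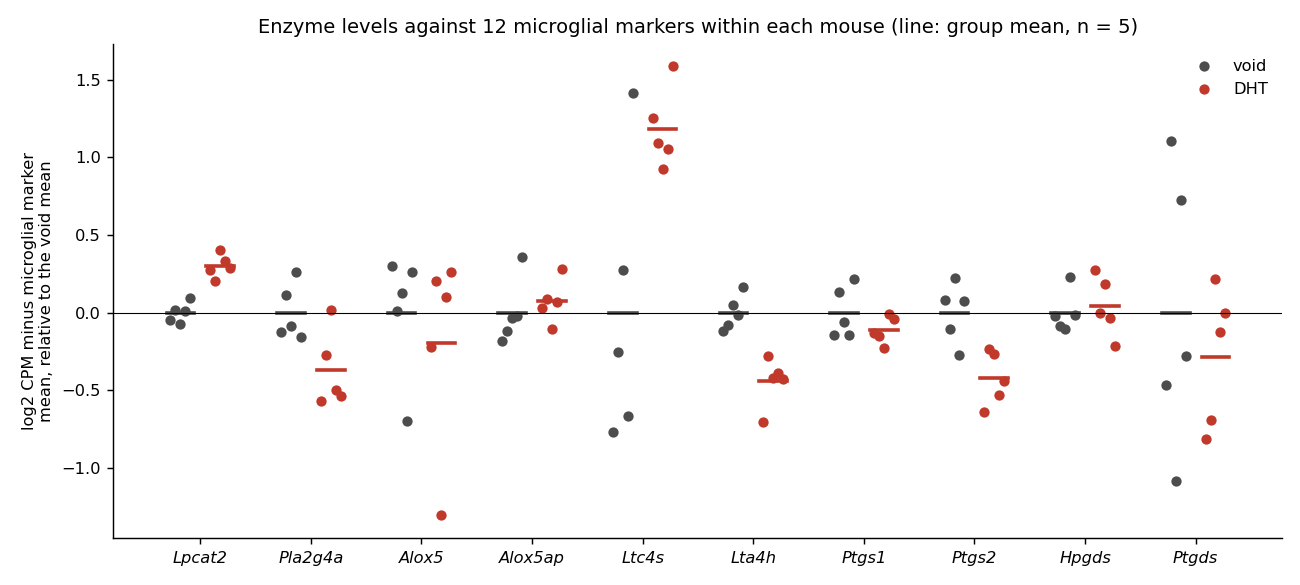
Log2 CPM of each enzyme minus the mean log2 CPM of 12 microglial markers in the same mouse, with the void mean set to 0 (y axis), and a line at each group's mean of 5 mice. Lpcat2 lies above 0 in all DHT-treated mice and Lta4h below 0 in all of them, while Alox5ap, Ptgs1 and Hpgds stay close to the void level. The marker mean is itself higher with DHT, so an enzyme with unchanged CPM falls below 0.

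Other cell types that carry these enzymes were looked for by their markers. Of 7 mast cell markers, Fcer1a had no count in any library, Cpa3 had at most 4 counts, and 1 (Hdc, histidine decarboxylase, also a neuronal gene) had enough counts to be tested. Hdc was higher with DHT by 0.82 in log2 (SE 0.19, adjusted p = 0.0267), its part in the enzymes' changes was not tested, and the summed list ranged from 1.73 to 2.85 CPM with void and from 3.26 to 4.399 CPM with DHT. Nearly all of that sum was Hdc: the other 6 markers together ranged from 0.0310 to 0.300 CPM with void and from 0.0493 to 0.293 CPM with DHT, with overlap. Markers of monocytes and neutrophils summed to between 0.671 and 2.44 CPM, those of platelets to between 0.913 and 1.86 CPM and those of border-associated macrophages to between 2.45 and 15.5 CPM, with overlapping groups in each list. The 7 oligodendrocyte markers all had a positive log2 change, and none passed in edgeR or DESeq2, with 3 higher at an unadjusted p under 0.05 in edgeR. No share of all tested genes at that unadjusted limit is given, so nothing is read from this count. Their summed level ranged from 2910 to 4004 CPM with void and from 3582 to 3905 CPM with DHT.

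The closeness of single genes to each enzyme was measured on log2 CPM without the group means, scaled to z-scores, over 10 mice and 14835 genes of at least 1 CPM. The closest to Lpcat2 was Ly86 (MD-1, the partner of the Toll-like receptor homologue CD180), at a root mean square difference of 0.200 z units. Ltc4s was closest to Nid2 (nidogen-2, a basement membrane protein) at 0.205 and Tbc1d2 at 0.215. For Ptgds these were Vtn (vitronectin) at 0.265 and Slc22a6, an organic anion transporter on the leptomeningeal marker list, at 0.308. Myo6 at 0.266 and Anxa3 at 0.270 were closest to Hpgds, and Ptpn13 at 0.312 to Ptgs1. Acss1 (0.319) was closest to Alox5ap, Gbp2b (0.258) to Alox5, Plod2 (0.169) to Pla2g4a, Tagap (0.319) to Lta4h and C130013H08Rik (0.344) to Ptgs2. These are descriptions of shared spread between 10 mice.

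Of 74 other genes of the eicosanoid and PAF pathway, 60 had enough counts to be tested. In edgeR 5 of the 60 were higher with DHT, where 5.19% of all tested genes were called higher, and 0 were lower, where 0.25% of all tested genes were called lower. At an unadjusted p under 0.05 these counts were 12 and 0. No share of all tested genes at that limit is given here, so nothing is read from them. DESeq2 called 8 higher and 0 lower, beside 1220 higher and 226 lower among all genes. The 3 it added were Pla2g5, Pafah2 and Cyp4f18, the last of which edgeR's filter had left out. The median log2 change of the 60 was 0.07, and 35 were above 0, beside 52.4% of all tested genes. Around LPCAT2, 9 genes were tested: 3 related acyltransferases (Lpcat1, Lpcat3 and Lpcat4), 5 subunits or forms of PAF acetylhydrolase and the PAF receptor. Ptafr, the PAF receptor, rose from 2.35 ± 0.386 to 4.23 ± 0.567 CPM (SD, n = 5 each), or 0.85 in log2 (SE 0.14, adjusted p = 0.00905). Its adjusted p stayed under 0.05 in all 10 fits without 1 mouse, and the groups did not overlap. The PAF acetylhydrolases did not pass in edgeR. Pafah2 had a log2 change of 0.48 (SE 0.13, adjusted p = 0.0569) without overlap between the groups, and it passed with DESeq2 (adjusted p = 0.0147). Pla2g7, the secreted form, had a log2 change of 0.03 (SE 0.10, adjusted p = 0.940).

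Among 7 terminal prostanoid synthases, 1 passed. Tbxas1, thromboxane A synthase, rose from 2.74 ± 0.409 to 4.71 ± 0.743 CPM (SD, n = 5 each), or 0.78 in log2 (SE 0.14, adjusted p = 0.0114), which also held in all 10 fits without 1 mouse. The prostaglandin E synthases did not pass, with log2 changes of 0.36 for Ptges, -0.02 for Ptges2 and -0.07 for Ptges3 (adjusted p = 0.296, 0.973 and 0.747), nor did prostacyclin synthase Ptgis at 0.62 (adjusted p = 0.340). Of the transport and breakdown genes 1 of 6 passed: Abcc4, an exporter of prostanoids and cyclic nucleotides, at a log2 change of 0.58 (SE 0.11, adjusted p = 0.0136). Without void replicate 11 its adjusted p was 0.0548. Hpgd, which inactivates prostaglandins, was at 0.67 with a standard error of 0.49. In the epoxygenase branch 1 of 5 passed: Ephx1, microsomal epoxide hydrolase, rose from 28.5 ± 7.73 to 44.8 ± 4.61 CPM (log2 change 0.66, SE 0.15, adjusted p = 0.0249). It held in 3 of the 10 fits without 1 mouse, those without void replicate 9 or DHT replicate 2 or 5. Like Ltc4s, Ephx1 was high in void replicate 9, at 41.9 CPM. The choroid plexus covariate brought its log2 change to 0.16, in a fit where choroid plexus content and implant are partly confounded. The part of choroid plexus content in the change of Ephx1 was not tested. Of 16 phospholipases and related genes 1 passed: Plaat3, a phospholipase and acyltransferase listed as Pla2g16 in GENCODE M21, at 0.33 (SE 0.07, adjusted p = 0.0232). It was lost without void replicate 4, 5 or 11 and without DHT replicate 1 or 5.

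None of the 7 tested prostanoid receptors passed in edgeR or DESeq2, and none had an unadjusted p under 0.05 in edgeR. Ptger1 and Ptger4 had log2 changes of 0.14 and 0.21, and Ptger2, Ptger3 and Ptgdr of -0.26, -0.46 and -0.58, each within 2 standard errors of 0. Ptgdr2, the other prostaglandin D2 receptor, and Ltb4r1, the leukotriene B4 receptor, had 1 to 6 counts per library and were not tested. Cysltr1, which responds to the leukotrienes made through Ltc4s, averaged 1.40 ± 0.440 CPM in void-treated and 2.06 ± 0.619 in DHT-treated mice (SD, n = 5 each), and its log2 change was 0.57 (SE 0.25, adjusted p = 0.259). None of the 4 tested lipoxygenases beside Alox5 passed in edgeR, at an unadjusted p under 0.05 or with DESeq2.

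**Figure D4:**
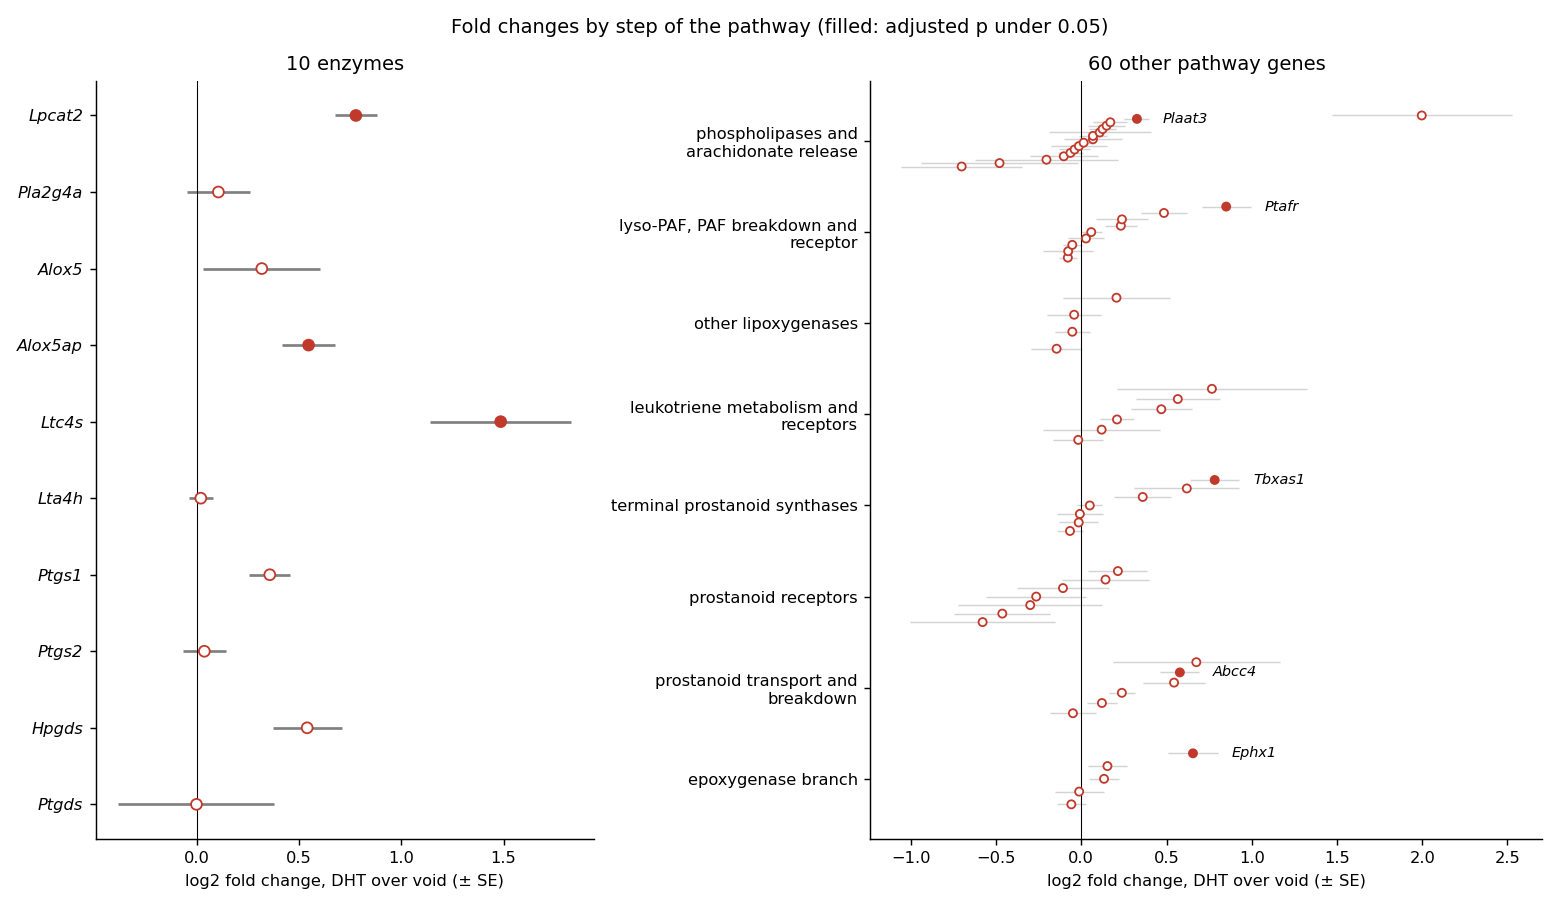
Log2 fold change from void to DHT with its standard error (x axes) for the 10 enzymes (left) and for 60 other pathway genes grouped by step (right), where filled points have an adjusted p under 0.05. Filled on the left are Lpcat2, Alox5ap and Ltc4s, and on the right Plaat3, Ptafr, Tbxas1, Abcc4 and Ephx1. All filled points lie above 0.

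Annotated genes on the opposite strand overlap Lpcat2 (Gm45472, 40.3 counts per library on average, against 649 for Lpcat2), Alox5ap (Gm19719, 20.1 against 126) and Ltc4s (Gm26542, 17.8 against 137). Whether the counting used strand is not given in the sources used here, so a part of those reads cannot be assigned.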

How the data were processed

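RNA was measured in hippocampus of 10 mice, 5 void and 5 DHT, grouped by the sample labels. The deposited values are raw read counts for each gene. Reads had been filtered by the authors with HTStream and aligned with STAR 2.7.10b. Their methods name mm10 while the submitters' processing notes name mm39 and GRCm39. The annotation, strand setting and treatment of shared reads are not given in the sources used here, and no gene coordinates are printed beside those of the RefSeq promoters. GENCODE M21 gave symbols for 51948 of 56884 identifiers. For 51911 identifiers the version number was later than in M21. The gene models used for counting may therefore differ from the M21 models used here for exon lengths and overlaps.

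The tests ran in R 4.3.3: edgeR 4.0.16 as the main tool (expression filter by group, TMM, robust quasi-likelihood test, Benjamini-Hochberg over 17622 genes), with DESeq2 1.42.0 as an alternative. DESeq2 was also the tool of the study. A standard error is the absolute log2 change over the root of F. Log2 CPM used a prior count of 2. Covariates are mean z-scores of marker lists. Both count models were first tested on simulated data, and the outcome is not given here. Total counts ranged from 27188854 to 47113661 per library. Precision did not follow counts alone. Of the 10 enzymes, Ptgds had the most counts (3413 to 12139 per library) and the largest standard error (0.38). Alox5 had the fewest counts (23 to 71 per library) and a standard error of 0.29.

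The members, lists and tests were chosen with earlier results of these data known. Named are the 10 enzymes, the pathway genes with an adjusted p under 0.05, fixed enzymes and receptors next to the 10, and the genes closest to each. Pla2g5, Pafah2, Lpcat3, Lpcat4, Cyp4f18 and single markers were named after their values were seen, the motifs were chosen after the promoters were read, and the leptomeningeal covariate was added after the data were examined. Other alternatives were another normalization, filters, the fold limit, a choroid plexus covariate and leaving out each mouse.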

Additional observations from a re-analysis of the deposited data

Results flagged for a closer look

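In 4 of 56 groups of 5 mice, a single mouse stood apart by a gap to its nearest neighbour of more than 0.71 of the group's range, where chance gives about 2.8. Alox5 was lowest in DHT replicate 3, with a gap of 0.858 of the range (0.649 CPM, 31 counts). Ephx1 was highest in void replicate 9 (0.770), the void-treated mouse with the most choroid plexus marker RNA. Pla2g7 (0.830) and Hpgd (0.716) were both highest in void replicate 5.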

How the results depend on the processing

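No paired analysis was possible because the labels name neither pairs nor litters. The paper states that littermates were randomized between the treatments. The 3 enzymes called higher became 1 with the fold limit, 5 with DESeq2 (Ptgs1 and Hpgds added), 1 with no filter beyond 1 count (Lpcat2) and 0 with the choroid plexus covariate, a fit that called 0 of all genes. They ranged from 1 to 4 with 1 mouse left out. Calls of higher genes over the whole table moved too, from 914 to 1220 with DESeq2, 810 with no filter and 355 to 1073 with 1 mouse left out. Lpcat2 alone was left without void replicate 10, 11, 4 or 5 and without DHT replicate 1 or 6. The 5 other pathway genes called higher became 0 with the fold limit, 8 with DESeq2 and 0 with the choroid plexus covariate, and ranged from 2 (without void replicate 11) to 6. The choroid plexus covariate turned the sign of Alox5 (-0.00321), Lta4h (-0.0544), Ptgs2 (-0.151), Ptgds (1.34), Ptger3 (0.596), Ptgdr (1.303) and Lpcat1 (-0.00809). The leptomeningeal covariate, added after seeing the data, turned that of Ptges2 (0.0238) and Pla2g7 (-0.00350). Lta4h was also negative with DESeq2 (-0.00772) and with its size factors in edgeR (-0.00767), and Ptgds positive with library size alone (0.0106). With 1 mouse left out the sign turned for Pla2g4a (-0.0357 to 0.183), Lta4h (-0.0375 to 0.0443), Ptgs2 (-0.0311 to 0.0949), Ptgds (-0.208 to 0.302), Ptges2 (-0.117 to 0.0409), Lpcat1 (-0.0136 to 0.0881) and Pla2g7 (-0.0613 to 0.133). None of these was called. The cause was not tested. Of 603 values of single genes compared, 527 kept direction and side of the limit, 37 became weaker, 4 stronger and 35 turned sign. Depth limits Alox5, Ltb4r1, Ptgdr2 and the mast cell markers.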

Other observations

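Pla2g5, a secreted phospholipase A2, had the largest fold change of the pathway genes without passing the limit in edgeR. It averaged 2.12 ± 2.08 CPM in void-treated and 8.59 ± 1.56 in DHT-treated mice (SD, n = 5 each). The log2 change was 1.997 (SE 0.53) at an adjusted p of 0.0521 in edgeR and 0.0318 with DESeq2, and the groups did not overlap. Its highest void-treated mouse was replicate 9 at 5.37 CPM, as for Ltc4s, Ephx1 and the choroid plexus markers.

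Cyp4f18, a cytochrome that breaks down leukotriene B4, was under the filter on low counts in edgeR, at 0.0438 ± 0.0228 CPM in void-treated and 0.235 ± 0.0969 in DHT-treated mice (SD, n = 5 each), without overlap between the groups. It had 1 to 14 counts per library, and DESeq2 gave it an adjusted p of 0.0137.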
